A study of Saccharomyces cerevisiae with 21 samples.

Results

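Budding yeast carrying a humanized U1C were compared between dense and sparse cultures. The comparison takes every library of the 2 groups, 3 at high density (OD600 near 8) and 3 at low density (OD600 near 0.4), which are 6 of the 21 libraries of the series, and no measured value was used to choose them. Each library counts polyadenylated RNA over 6571 coding sequences of Saccharomyces cerevisiae. The series also holds wildtype at both densities, with 3 libraries near OD600 5 and 3 near 0.4, and strains altered in Luc7. Wildtype is used here only to set its own density difference beside that of the humanized strain.

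All 6 libraries come from a strain whose U1C, the yeast protein Yhc1, was replaced by a humanized form, and they carry no other label of genotype or treatment. According to the design text the dense cultures were sequenced first and the sparse ones in a repeat experiment, so density and experiment cannot be told apart. The growth medium is given for all strains together as YPD or dropout medium, not for each group. The labels do not say whether the replicates were separate cultures, so the p-values measure the spread between libraries. The dense humanized cultures were denser than the dense wildtype ones, so a difference between the strains mixes strain with density.

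U1C sits in the U1 small nuclear ribonucleoprotein (U1 snRNP), which recognises the 5′ splice site at the start of an intron. In yeast few genes hold an intron, but those of many ribosomal proteins do. Yeast in fresh glucose medium grows mainly by fermentation. As a culture becomes dense and glucose runs down, cells are known to switch to respiration of the ethanol they made, to store glycogen and trehalose, to induce stress genes and to make fewer ribosomes.

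Sequencing depth was 30.4 to 46.8 M (mega) assigned reads per library at high density and 31.4 to 32.8 M at low density. The first principal component, with 47.5% of the variance over the 12 libraries of both strains, separated dense from sparse libraries. Cytosolic ribosomal protein genes took 11.6 to 12.9% of the reads of the dense humanized libraries and 14.1 to 14.8% of the sparse ones. The third dense library stood apart and was the deepest. Over long coding sequences its median of length minus effective length was 74.5 bases, against 254 and 309 in the other dense libraries. It correlated with them at 0.984 and 0.986, where those correlated at 0.994. Some gene lists and calls are given without it as well.

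Strain genes came first. Reads assigned to YHC1, the gene of yeast U1C, amounted to 25.4, 28.2 and 30.7 normalised CPM (counts per M reads) in the dense libraries, in replicate order, and to 31.4, 28.5 and 29.7 in the sparse ones. These ranges overlapped, and the log2 fold change, high over low density, was −0.09 ± 0.08 (standard error, SE) with an adjusted p of 0.416. The value cannot check the label, since the files do not tell how much of the humanized sequence was assigned to the yeast gene. LUC7, which codes for another U1 snRNP protein, read 34.4, 43.7 and 40.1 CPM at high and 51.6, 59.3 and 49.5 CPM at low density. It fell by 1.36-fold (log2 fold change −0.44 ± 0.11, edgeR adjusted p 0.00449), with no overlap between the groups.

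Of 6150 tested genes, 1704 (27.7%) rose and 1644 (26.7%) fell at high density in the humanized strain, at an adjusted p below 0.05 in edgeR's quasi-likelihood test. With limma-trend on log2(TPM + 1) the split was 2703 higher and 708 lower, and the median over all genes moved from 0.02 to 0.23. At least 2-fold changes were seen in 255 (4.15%) higher and 124 (2.02%) lower genes, and the median absolute log2 fold change was 0.306. The groups of 3 did not overlap in 4169 genes (67.8%). Since 54.4% of the genes passed the test, sizes are given beside calls throughout. In such bulk RNA fewer cells with a transcript and less of it per cell cannot be told apart, and the counts are relative to the rest of the polyadenylated RNA.

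**Figure D1:**
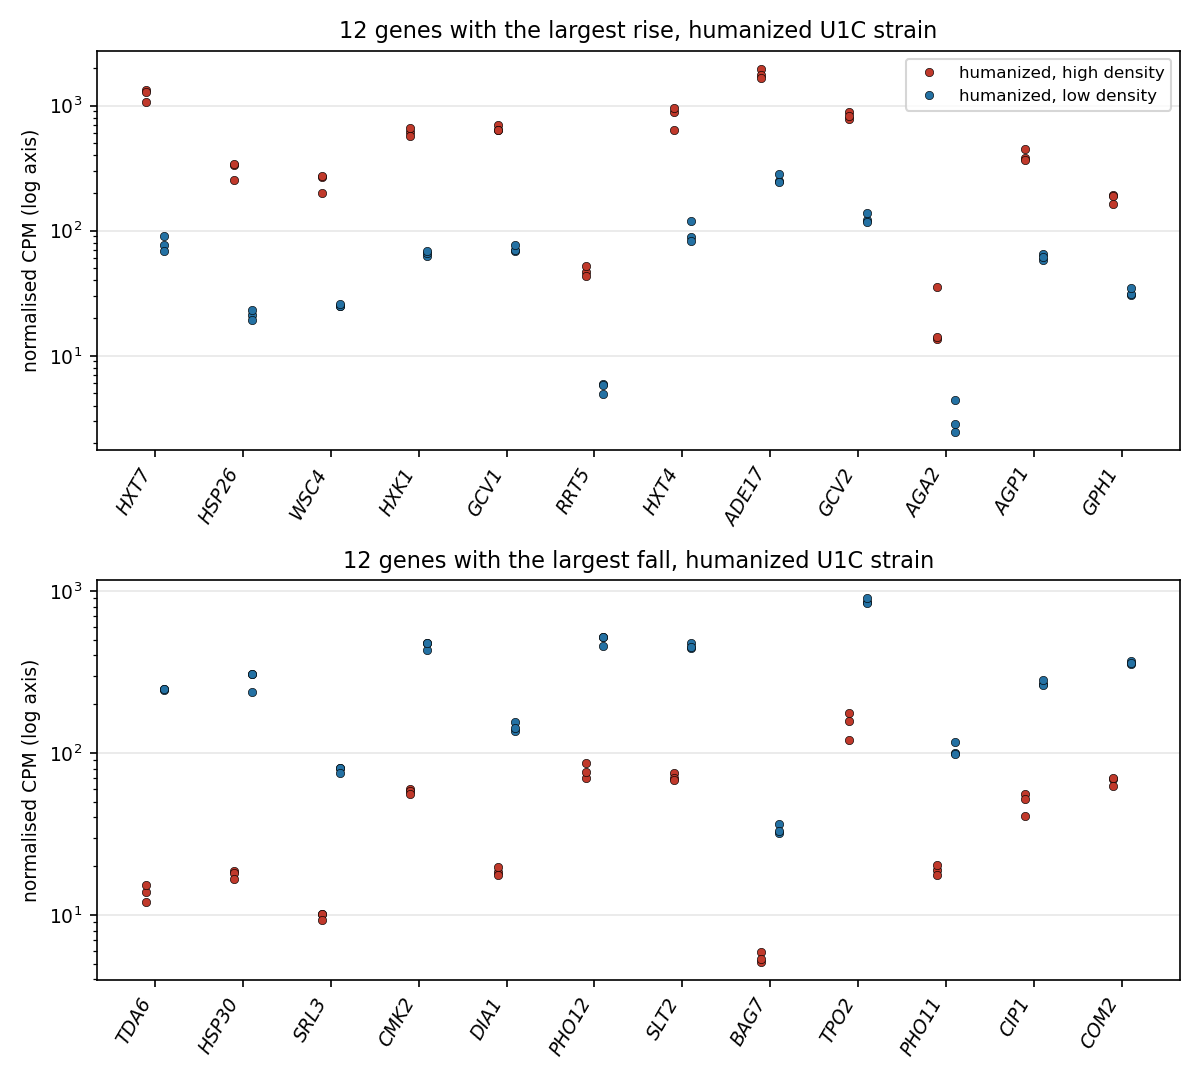
Normalised CPM on a log axis for the 12 genes with the largest rise (top) and the largest fall (bottom) in the humanized strain, within the limits for named genes. There is a point for each of the 3 dense (red) and 3 sparse (blue) libraries. In every gene drawn the dense libraries lie apart from the sparse ones; AGA2 has the widest spread among the dense libraries, 13.6 to 35.6 CPM.

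Sugar uptake and the first step of sugar use gave some of the largest rises. HXT7, a high-affinity glucose transporter, had 1064, 1336 and 1285 CPM in the dense libraries against 76.9, 68.99 and 91.04 CPM in the sparse ones. All dense libraries were far above all sparse ones, a rise of 15.6-fold (log2 fold change 3.96 ± 0.27, adjusted p 2.29e-07). Of the 31-base stretches of HXT7 95.7% also occur in another coding sequence, mostly HXT6, so the division between the pair is uncertain; HXT6 rose with a log2 fold change of 1.29 ± 0.36. HXT4, another glucose transporter, read 635, 885 and 954 CPM at high and 89.5, 82.1 and 119 CPM at low density, 8.51-fold higher (log2 fold change 3.09 ± 0.19). HXK1, the hexokinase made when glucose is scarce, rose 9.34-fold, from 62.6, 66.9 and 68.5 CPM to 619, 662 and 569 CPM. Its counterpart in glucose-rich cells, HXK2, went the other way, from 1727, 1725 and 1828 CPM to 932, 936 and 846 CPM, with a log2 fold change of −0.96 ± 0.07. Not every transporter of this class rose. HXT2, which has a high affinity as well, fell from 1100.0, 1164 and 1211 CPM to 444, 524 and 643 CPM (log2 fold change −1.11 ± 0.26), and HXT5 fell by 1.33-fold. Among the low-affinity transporters HXT1 fell (log2 fold change −0.62 ± 0.08), while HXT3 had 3035, 3565 and 3826 CPM at high and 3017, 3108 and 3259 CPM at low density and did not pass the test (adjusted p 0.143). MTH1, a regulator that holds back transporter genes when glucose is low, rose 3.12-fold.

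Some genes of glycine cleavage and of the ADE pathway of purine synthesis had large rises. GCV1 and GCV2 code for subunits of the mitochondrial glycine decarboxylase, which feeds carbon units to folate, and ADE17 for the enzyme of the last steps of purine synthesis, which uses such a unit. GCV1 had 706, 643 and 639 CPM at high and 68.3, 69.8 and 76.3 CPM at low density. GCV2 read 882, 776 and 829.9 CPM against 122, 118 and 139 CPM, and ADE17 1967, 1765 and 1670.0 CPM against 248, 245 and 282 CPM. None of these ranges overlapped, and the log2 fold changes were 3.21 ± 0.17, 2.71 ± 0.20 and 2.80 ± 0.14 (adjusted p 4.12e-08, 4.86e-07 and 2.57e-08). Of 28 tested genes of purine and pyrimidine synthesis, 11 rose and 13 fell, beside 27.7% and 26.7% of all tested genes. The ADE genes that passed all rose, among them ADE2 (log2 fold change 1.74), ADE4 (1.36) and ADE1 (1.19). Most other genes of the list fell, with the exceptions of URA10 (log2 fold change 0.71) and FUR4 (1.09). FUR1, which salvages uracil, fell from 257, 256 and 263 CPM to 91.7, 95.4 and 96.8 CPM (log2 fold change −1.45 ± 0.07), and IMD2, of guanine nucleotide synthesis, fell by 1.91-fold. Chosen after their values were seen, GCV3, SHM2 and MTD1, further genes of glycine and folate metabolism, rose with log2 fold changes of 1.77, 1.96 and 1.97.

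The upstream regions of GCV1, GCV2, ADE17 and ADE1 are shown because each holds the letters TGACTC, a short site that the amino acid control factor Gcn4 can bind. Those of the other genes named above are not shown. Whether Gcn4 or another factor acts on these genes was not tested. Each stretch runs from 250 to 81 bases before the start codon in the R64 (sacCer3) genome, on the strand of the gene, with TGACTC or its reverse complement in capitals. GCV1 lies at chrIV:485446-485615 on the minus strand, GCV2 at chrXIII:637250-637419 on the plus strand, ADE17 at chrXIII:509361-509530 on the minus strand and ADE1 at chrI:169125-169294 on the plus strand.
GCV1: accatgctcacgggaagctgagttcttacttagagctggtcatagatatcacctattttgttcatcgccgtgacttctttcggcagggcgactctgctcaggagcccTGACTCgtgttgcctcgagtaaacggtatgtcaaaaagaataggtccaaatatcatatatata
GCV2: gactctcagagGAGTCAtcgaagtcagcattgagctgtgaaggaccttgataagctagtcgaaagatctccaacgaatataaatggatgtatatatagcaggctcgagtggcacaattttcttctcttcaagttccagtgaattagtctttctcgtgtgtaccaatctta
ADE17: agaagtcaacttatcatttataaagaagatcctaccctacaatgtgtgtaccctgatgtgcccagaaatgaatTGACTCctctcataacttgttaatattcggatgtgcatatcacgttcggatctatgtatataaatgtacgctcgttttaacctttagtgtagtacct
ADE1: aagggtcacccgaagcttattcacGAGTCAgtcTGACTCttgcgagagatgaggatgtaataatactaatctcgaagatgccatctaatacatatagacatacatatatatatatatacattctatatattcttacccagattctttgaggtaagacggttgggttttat
The match starts 143 bases before the start codon in GCV1, 239 in GCV2 and 177 in ADE17, and ADE1 has a pair of matches at 226 and 217. In the 300-base windows from 250 bases before to 50 bases after the start codon, TGACTC on either strand occurred in 13.6% of the 220 genes that rose at least 2-fold, in 5.79% of the 121 that fell as much, and in 8.15% of all 5875 windows. A match is a description of the letters and not a measured binding site. GCN4 itself had 1032, 1093 and 994 CPM at high and 1235, 1169.8 and 1243 CPM at low density and did not pass the test (log2 fold change −0.23 ± 0.09, adjusted p 0.0565).

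Among other large rises, WSC4, a cell surface protein of the stress sensor family, went from 24.9, 25.1 and 25.9 CPM to 267, 274 and 201 CPM, a 9.77-fold rise. AGP1, a broad amino acid permease, rose 6.48-fold, from 57.99, 64.7 and 61.7 CPM to 380.1, 447 and 369 CPM. RRT5 was at 5.92, 5.83 and 4.91 CPM in the sparse and at 46.5, 52.2 and 43.7 CPM in the dense libraries, 8.54-fold higher. These 3 genes were separated between the groups with little spread inside them. AGA2, the adhesion subunit of a-agglutinin on mating cells, read 13.6, 14.2 and 35.6 CPM against 4.41, 2.44 and 2.86 CPM, with the third dense library above the other dense ones.

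Genes of respiration rose as a group. Of 23 tested nuclear genes of the respiratory chain, 21 rose and 1 fell, with a median log2 fold change of 1.01 against 0.02 over all genes. The flavoprotein subunit of succinate dehydrogenase, SDH1, went from 53.7, 57.7 and 54.2 CPM to 204, 215 and 169 CPM, a rise of 3.55-fold (log2 fold change 1.83 ± 0.11, adjusted p 1.26e-07). Its iron-sulphur partner SDH2 went from 47.96, 49.3 and 46.3 CPM to 122, 135 and 106 CPM (log2 fold change 1.34 ± 0.09). For cytochrome c1, CYT1, the values were 82.2, 80.5 and 85.2 CPM at low and 243, 255 and 196 CPM at high density (log2 fold change 1.48 ± 0.11). In each of these genes all dense libraries lay above all sparse ones. COX5B, the form of cytochrome oxidase subunit 5 known from cells short of oxygen, rose 4.34-fold, from 16.7, 12.8 and 15.2 CPM to 57.9, 59.997 and 76.1 CPM, and the aerobic form COX5A rose 1.66-fold. The member that fell was NDE1, an external NADH dehydrogenase, from 621, 647 and 633 CPM to 398, 433 and 384 CPM (log2 fold change −0.65 ± 0.07). The upstream region of SDH2, at chrXII:54012-54181 on the minus strand and from 250 to 81 bases before the start codon, is shown for its pair of CCAAT letters, in capitals on either strand, the site of the Hap activator of respiratory genes.
SDH2: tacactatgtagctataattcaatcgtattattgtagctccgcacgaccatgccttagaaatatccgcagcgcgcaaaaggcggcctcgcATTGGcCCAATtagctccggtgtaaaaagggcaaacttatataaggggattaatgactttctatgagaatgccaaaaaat
CCAAT occurred in 73.9% of the windows of the respiratory chain and in 43.8% of all windows. In genes that rose at least 2-fold the share was 45.0%, near that of all windows, and in those that fell as much 43.0%.

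**Figure D2:**
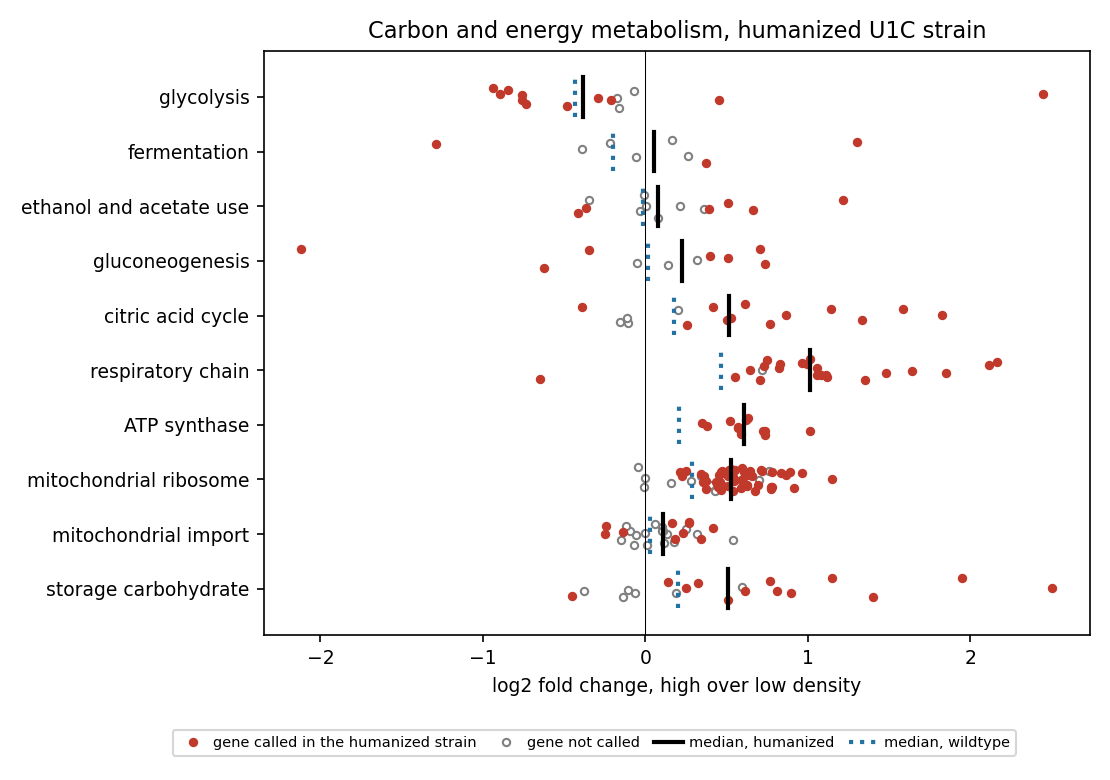
Log2 fold change, high over low density, of the tested genes in 10 lists of carbon and energy metabolism in the humanized strain; filled red points passed the test, open points did not, black bars are the medians and blue dotted bars the medians in wildtype. Respiratory chain genes lie to the right with a median of 1.01 and glycolytic genes mostly to the left with a median of −0.39.

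Enzymes that supply and use the respiratory chain moved less. In the citric acid cycle 11 of 16 tested genes rose and 1 fell (median log2 fold change 0.52); LSC2, of succinyl-CoA ligase, rose 3.01-fold, while CIT1, the mitochondrial citrate synthase, had 216, 218 and 188 CPM and 221, 212 and 237 CPM and did not pass (adjusted p 0.491). All 12 ATP synthase genes rose, with a median of 0.60 and log2 fold changes from 0.35 to 1.01. Of 63 genes of the mitochondrial ribosome 52 rose (median 0.53); MRPS17, of the small subunit, had the largest rise, from 27.3, 28.3 and 27.1 CPM to 58.6, 60.7 and 64.4 CPM. Mitochondrial import stayed near the background of all genes, with 7 of 27 higher and 3 lower (median 0.11).

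Glycolytic genes went down. Of 14 genes 9 fell and 2 rose (median log2 fold change −0.39). Enolase ENO2 read 11904, 11979 and 10236 CPM at high and 22096, 21487 and 21738 CPM at low density, and pyruvate kinase CDC19 8427, 7906 and 7150.4 CPM against 12603, 12916 and 13579 CPM, log2 fold changes of −0.94 ± 0.10 and −0.74 ± 0.10 with no overlap. The exception in size was TDH1, a glyceraldehyde-3-phosphate dehydrogenase isozyme, which rose 5.45-fold, from 291, 258 and 319 CPM to 1514, 1769.7 and 1449 CPM; 26.3% of its 31-base stretches occur in another coding sequence, mostly TDH2. In fermentation PDC1, the main pyruvate decarboxylase, fell 2.44-fold, from 20760.0, 20655 and 21426 CPM to 9188, 9215 and 7328 CPM, and ADH1, the main alcohol dehydrogenase, did not pass (log2 fold change −0.22 ± 0.10, adjusted p 0.0819).

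Genes known for growth on ethanol and other non-fermentable carbon went both ways. Of 13 genes of ethanol and acetate use 4 rose and 2 fell (median 0.08). Of 10 genes of gluconeogenesis and the glyoxylate cycle 4 rose and 3 fell (median 0.23). Over all tested genes 27.7% rose and 26.7% fell. ADH2, which oxidises ethanol, had 28.8, 33.6 and 26.7 CPM at high and 39.2, 41.6 and 37.5 CPM at low density and fell (log2 fold change −0.41 ± 0.14, adjusted p 0.0299). The call of ADH2 was lost without dense library 1 or 3 or sparse library 1 or 2, at adjusted p of 0.0699, 0.0971, 0.0618 and 0.0886. The lactate permease JEN1 had 16.8, 17.4 and 15.7 CPM and 15.4, 18.99 and 15.7 CPM, overlapping ranges. The gluconeogenic PCK1 had 13.6, 15.8 and 13.6 CPM against 12.2, 12.1 and 10.2 CPM and missed the threshold (adjusted p 0.0523), and FBP1 stayed below 10 CPM in every library, with a log2 fold change of 0.39 ± 0.14 and an adjusted p of 0.0273. Without dense library 1 or 2 or sparse library 2 or 3 the adjusted p of FBP1 was 0.0829, 0.0884, 0.072 and 0.101. Among those that rose were ALD4, a mitochondrial aldehyde dehydrogenase (2.32-fold), ICL1 of the glyoxylate cycle (1.63-fold) and CAT8, an activator of these genes (1.58-fold). CIT2, the peroxisomal citrate synthase, fell from 183, 181 and 193 CPM to 41.4, 43.2 and 43.6 CPM, a 4.34-fold fall.

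Storage carbohydrate genes rose in 12 of 19 cases and fell in 1 (median log2 fold change 0.51). GPH1, glycogen phosphorylase, went from 30.8, 31.04 and 34.9 CPM to 194, 190.0 and 165 CPM (5.67-fold), and PGM2, phosphoglucomutase, from 37.8, 35.5 and 36.8 CPM to 154, 152 and 119 CPM (3.86-fold). The groups were apart in both genes. Trehalose phosphate synthase, TPS1, missed the threshold at a log2 fold change of −0.38 ± 0.15 (adjusted p 0.0538), whereas its regulatory subunit TSL1 rose 1.76-fold.

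Stress genes went both ways within the lists used. Of 9 tested genes of a list of small heat shock and other stress genes 4 rose and 2 fell, beside 27.7% and 26.7% of all tested genes. Their log2 fold changes ran from −3.98 (HSP30) to 3.86 (HSP26), with a median of 0.34 (−0.09 over genes with a mean of 10 CPM or more). Small heat shock protein HSP26 rose 14.5-fold, from 21.4, 23.4 and 19.5 CPM to 336, 342 and 255 CPM (log2 fold change 3.86 ± 0.18, adjusted p 1.18e-08). HSP12, a membrane-stabilising small heat shock protein, rose 5.06-fold, from 12.2, 14.6 and 11.6 CPM to 64.5, 74.2 and 55.9 CPM. By contrast HSP30, which restrains the plasma membrane proton pump, fell 15.8-fold, from 306, 237 and 305 CPM to 18.8, 18.3 and 16.7 CPM (log2 fold change −3.98 ± 0.19), and the cell wall protein SPI1 fell 3.35-fold. Of 33 general stress genes 19 rose and 4 fell (median 0.47); YGP1, a secreted glycoprotein, went from 184, 177 and 215 CPM to 569, 640.4 and 389 CPM, and DCS2, a stress-induced regulator of mRNA cap breakdown, rose 3.35-fold. Catalase CTT1, a common reporter of this response, had 34.7, 31.7 and 25.7 CPM and 28.2, 28.8 and 26.6 CPM and did not pass (adjusted p 0.414). Chaperones of the Hsp70, Hsp90 and Hsp100 families fell in 13 of 24 cases and rose in 3 (median −0.46). The disaggregase HSP104 fell from 898, 878 and 934 CPM to 508, 469.5 and 388 CPM, and the Hsp70 gene SSA2 from 4864, 4944 and 5006 CPM to 2438, 2351 and 1924 CPM, while SSA4, the stress-induced Hsp70, rose from 87.8, 109 and 89.8 CPM to 236, 228 and 203 CPM.

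The upstream region of HSP12, at chrVI:107006-107175 on the plus strand, is shown for its pair of AGGGG letters, the stress response element bound by Msn2 and Msn4, in capitals on either strand. That of TDA6, the gene with the largest fall, at chrXVI:841016-841185 on the plus strand, is shown for 3 matches to GAANNTTC, the core of the heat shock element. Both run from 250 to 81 bases before the start codon.
HSP12: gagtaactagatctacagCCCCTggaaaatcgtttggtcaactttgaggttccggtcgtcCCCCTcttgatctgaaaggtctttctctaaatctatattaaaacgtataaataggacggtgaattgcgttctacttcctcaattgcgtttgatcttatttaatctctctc
TDA6: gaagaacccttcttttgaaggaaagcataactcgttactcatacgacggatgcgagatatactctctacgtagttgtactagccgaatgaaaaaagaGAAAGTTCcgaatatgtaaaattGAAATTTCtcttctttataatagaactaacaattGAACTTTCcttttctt
AGGGG occurred in 31.8% of the windows of genes that rose at least 2-fold, in 24.8% of those that fell as much and in 21.96% of all. None of the motifs searched is contained in another. HSP26, with a rise larger than that of HSP12, has no AGGGG in its window, and no match says only that the letters are not there. GAANNTTC was found in 41.7% of the chaperone windows and in 11.97% of all. Its share was 14.9% in genes that fell at least 2-fold and 8.18% in those that rose as much.

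The largest falls included signalling and cell surface genes. TDA6 went from 249, 245 and 248 CPM in the sparse libraries to 13.8, 15.2 and 12.03 CPM in the dense ones, a fall of 18.2-fold (log2 fold change −4.18 ± 0.09, adjusted p 3.67e-11). SLT2, the MAP kinase of the cell wall integrity pathway, fell 6.43-fold, from 447, 478 and 448 CPM to 75.6, 69.7 and 68.2 CPM. CMK2, a calmodulin-dependent kinase, fell 8.000-fold, from 480.3, 434 and 476 CPM to 59.8, 58.5 and 55.6 CPM. Replicates of these 3 genes were close to each other, and the groups were far apart. SRL3 fell 8.01-fold and DIA1 7.79-fold; DIA1 overlaps an antisense open reading frame, and whether the counting used strand was not stated, so the pair cannot be told apart. BAG7, a GTPase-activating protein for Rho1, fell 6.22-fold, TPO2, a polyamine exporter, 5.75-fold, CIP1, an inhibitor of the cyclin-dependent kinase, 5.49-fold, and COM2, a zinc finger factor, 5.36-fold. For TPO2 49.9% of the 31-base stretches occur in another coding sequence, mostly TPO3.

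Cell wall genes went both ways, 7 of 33 up and 12 down, beside 27.7% and 26.7% of all tested genes. Their median was −0.17, or 0.06 with limma-trend on TPM, where that of all genes was 0.23. Chitin synthase CHS1 fell from 634, 687 and 674 CPM to 238, 209 and 213 CPM and the aspartic protease YPS1 from 345, 371 and 360.1 CPM to 148, 138 and 124 CPM. Up went GSC2, the stress-induced glucan synthase, from 127, 136 and 130.1 CPM to 411, 444 and 416 CPM, and the mannoprotein CWP2, which spread widely over the dense libraries at 1276, 1788 and 2567 CPM against 685, 509 and 626 CPM.

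Phosphate and metal genes fell more often than they rose. PHO12 and PHO11, secreted acid phosphatases that share over 90% of their 31-base stretches, fell 6.46-fold and 5.51-fold; PHO12 read 86.2, 69.7 and 76.4 CPM at high and 459.6, 519 and 523 CPM at low density. PHO84, the high-affinity phosphate transporter of the same regulon, rose instead, from 1869.6, 1759 and 1927 CPM to 2551, 2543 and 2186 CPM (log2 fold change 0.39 ± 0.09). Over the phosphate list 10 of 18 genes fell and 3 rose. Of 27 iron genes 15 fell and 4 rose, with a median of −0.23 (0.01 with limma-trend on TPM, beside 0.23 over all genes). FIT2, a cell wall mannoprotein that retains siderophore iron, fell 4.66-fold, and FET3, the ferroxidase of iron uptake, fell from 781, 699 and 923 CPM to 413, 465 and 388 CPM. The zinc transporter ZRT1 fell 1.97-fold. Ergosterol genes fell in 20 of 27 cases (median −0.46), led by MVD1, mevalonate pyrophosphate decarboxylase, from 375, 374 and 389 CPM to 148, 144 and 134 CPM.

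Most ribosomal protein and translation factor genes fell, by little. Of 89 ribosomal protein genes with an intron 70 fell and 1 rose, with a median log2 fold change of −0.41; of 47 without an intron 35 fell and 1 rose, with a median of −0.46. The difference between these medians was not tested. Without the third dense library the numbers that fell were 81 and 39. Translation factors fell in 20 of 25 cases (median −0.44). Elongation factor EFB1 went from 2077, 2067 and 2162 CPM to 1193, 1236 and 966 CPM and EFT2 from 5397, 5532 and 5515 CPM to 3896, 3839 and 3092 CPM. Of the 31-base stretches of EFT2 95.0% also occur in another coding sequence, mostly EFT1, so the division between the pair is uncertain. RNA polymerase I and III subunits fell in 15 of 20 cases (median −0.32). Ribosome biogenesis was less uniform, with 44 of 80 lower and 10 higher (median −0.24). With limma-trend on TPM, where the median over all genes was 0.23, the ribosome biogenesis genes were 14 lower and 16 higher (median −0.01). Those of RNA polymerase I and III were 4 lower and 2 higher (median −0.07), and translation factors 10 lower and 0 higher (median −0.20). Among genes of ribosomal proteins 46 that hold an intron and 30 that lack one were lower. DBP2, an RNA helicase, had the largest fall in the ribosome biogenesis list, from 1259, 1318 and 1247 CPM to 483, 518 and 516 CPM. BRX1, of the large subunit pathway, went from 319.7, 297 and 309 CPM to 172, 175 and 183 CPM (log2 fold change −0.80 ± 0.06). Proteasome genes fell in 31 of 34 cases (median −0.53); the gene that rose was RPN4, their activator, from 107, 125 and 117 CPM to 141, 153 and 146 CPM.

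The upstream region of BRX1, at chrXV:186804-186973 on the minus strand and from 250 to 81 bases before the start codon, is shown for its adjacent AAAAATTT and GATGAG, in capitals on either strand, elements known as RRPE and PAC in ribosome biogenesis promoters.
BRX1: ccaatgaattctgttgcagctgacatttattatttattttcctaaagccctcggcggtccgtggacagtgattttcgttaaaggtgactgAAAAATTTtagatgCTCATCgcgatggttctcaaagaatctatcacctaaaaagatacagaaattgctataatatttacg
GATGAG occurred in 93.7% and AAAAATTT in 84.8% of the windows of ribosome biogenesis genes, and in 19.8% and 14.4% of all windows. In genes that fell at least 2-fold the shares were 23.1% and 10.7%, and in those that rose as much 13.6% and 15.5%.

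**Figure D3:**
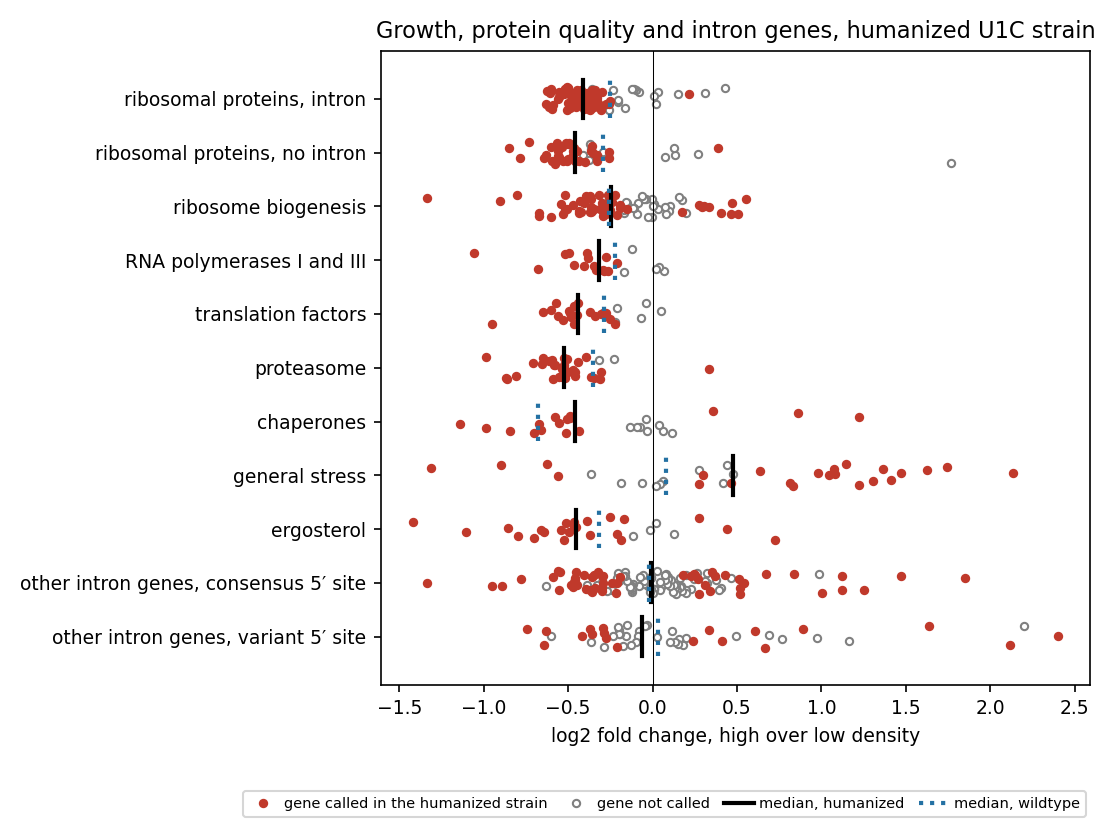
Log2 fold change, high over low density, of the tested genes in 11 lists in the humanized strain, drawn with red points for genes that passed the test, open points for others, black bars for medians and blue dotted bars for wildtype medians. Ribosomal protein genes with and without introns have medians of −0.41 and −0.46, and the other intron genes lie around 0.

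Intron genes outside the ribosome showed no common direction. The 5′ splice site consensus in yeast is GTATGT. Of 126 tested genes with this site 23 rose and 32 fell (median −0.01), shares below the 27.7% and 26.7% of all genes. Of 50 with another site 9 rose and 10 fell (median −0.06). With limma-trend on TPM the medians were 0.22 and 0.11, beside 0.23 over all genes on that scale. Without the third dense library 21 rose and 34 fell among genes with the GTATGT site (median −0.06). Among those with another site 8 rose and 12 fell without it (median −0.16). Among intron genes with a mean of 10 CPM or more over the 6 libraries, the largest rises were in respiratory genes: QCR9, of the cytochrome bc1 complex, with a GTATGT site, went from 4.31, 5.45 and 5.96 CPM to 22.2, 23.2 and 11.3 CPM, and COX5B, named above, has the site GCATGT. The counts are over spliced coding sequences, so the unspliced share was not analysed here. U1 snRNP genes changed little, with 2 of 20 higher, 3 lower and a median of 0.00. Without the third dense library 1 rose and 4 fell (median −0.09). With limma-trend on TPM 7 rose and 0 fell, with a median of 0.17 beside 0.23 over all genes. In the main fit NAM8 rose (log2 fold change 0.52 ± 0.09) and NPL3 fell (−0.53 ± 0.07). In the rest of the spliceosome 20 of 61 rose and 7 fell, or 15 and 11 without the third dense library. CWC2, which binds the spliceosome's RNA core, rose from 28.2, 30.4 and 26.9 CPM to 58.99, 63.8 and 65.5 CPM.

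Cell cycle and mating genes rose. Of 24 cyclin and cell cycle regulators 19 rose and 2 fell (median 0.44). The mitotic cyclin CLB1 went from 72.1, 66.6 and 75.3 CPM to 343, 349.5 and 331 CPM, a 4.79-fold rise, and FAR1, which arrests the cycle before mating, from 118, 128 and 121 CPM to 371, 372 and 359.8 CPM. The G1 cyclin CLN3 fell (log2 fold change −0.30 ± 0.11; adjusted p 0.0319, and 0.0565, 0.115, 0.0746 and 0.133 without dense library 1 or 3 or sparse library 2 or 3), and CLN2 did not pass (adjusted p 0.335). The libraries read as a cells: STE2, the a-cell receptor, stood at 922, 874 and 903 CPM and 487, 516 and 502 CPM, and STE3, the receptor of alpha cells, at 7.98, 6.37 and 6.51 CPM and 5.69, 6.75 and 7.71 CPM. The 4 genes specific to alpha cells summed to 50.98 to 56.4 CPM in dense and 49.98 to 55.6 CPM in sparse libraries. Of 7 a-cell genes 6 rose, with a median log2 fold change of 1.75, or 0.88 without the third dense library, where 5 rose. BAR1, the protease that breaks down alpha factor, went from 184, 199 and 180.2 CPM to 478, 478 and 448 CPM. Markers of meiosis did not rise together, with 2 of 12 higher and 4 lower, beside 27.7% and 26.7% of all tested genes. Their summed CPM was 168 to 173 in dense and 192 to 196 in sparse libraries.

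Nitrogen genes were mixed. Of 30 permease and nitrogen catabolism genes 12 rose and 6 fell, beside 27.7% and 26.7% of all tested genes. The general amino acid permease GAP1 went from 28.7, 28.8 and 27.3 CPM to 73.7, 74.7 and 69.1 CPM and the ammonium permease MEP2 from 24.5, 24.002 and 24.03 CPM to 75.3, 81.97 and 66.9 CPM, both without overlap. Vitamin genes rose in 9 of 21 cases, led by the thiamine transporter THI7, from 70.2, 74.1 and 65.5 CPM to 289.8, 358 and 261 CPM, and BNA1, of NAD synthesis, rose 2.49-fold.

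Wildtype also changed at many genes, by less at the median. There 1287 genes (20.9%) rose and 1393 (22.7%) fell, 167 (2.72%) and 124 (2.02%) of them by 2-fold or more, and the median absolute log2 fold change was 0.247. With limma-trend on TPM the wildtype split was 2290 higher and 564 lower. The wildtype groups did not overlap in 2966 genes (48.2%). Of the genes called, 1886 changed in the same direction in both strains and 117 in opposite directions, 1345 passed in the humanized strain alone and 677 in wildtype alone. Across genes, which are not independent, the fold changes of the strains correlated at a Pearson r of 0.636 and a Spearman rho of 0.665; the strains share no library. The difference between the strains' density changes was tested as an interaction, humanized minus wildtype, and passed for 605 genes (9.84%) upward and 493 (8.02%) downward, and 68 (1.11%) and 64 (1.04%) genes reached a 2-fold difference. These counts depend on the fit: an offset for length and GC gave 954 upward and 992 downward, limma-trend on TPM 269 downward, and leaving out the first sparse wildtype library 328 downward. In 766 of these 1098 genes the change was larger in the humanized strain and in 332 in wildtype, and in 523 the fold changes of the strains had opposite signs. How far this reflects the higher OD600 of the dense humanized cultures cannot be told apart from strain.

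**Figure D4:**
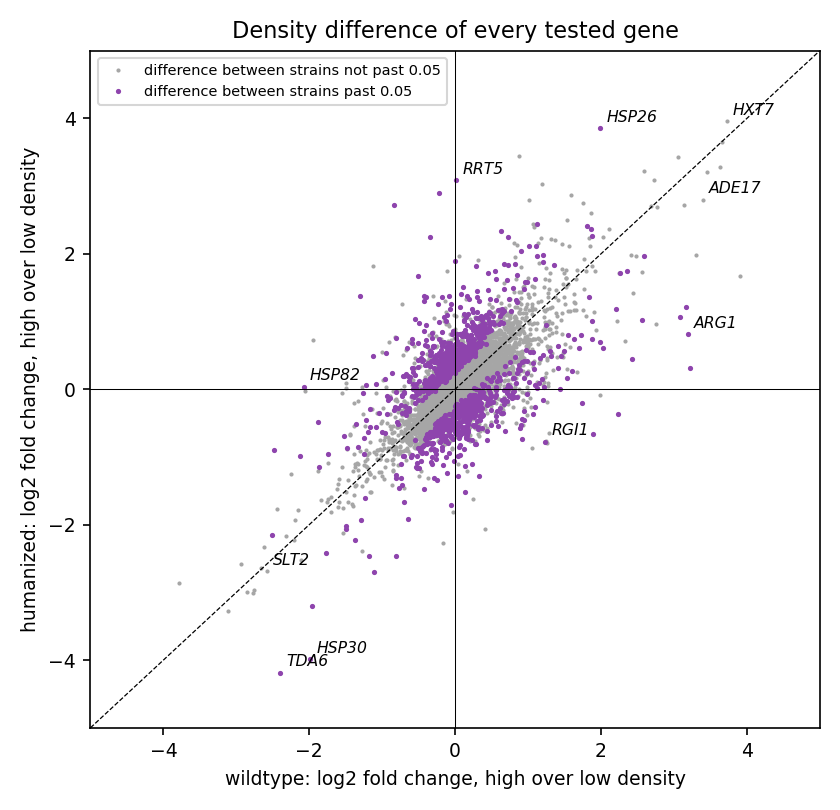
Log2 fold change, high over low density, of each tested gene in wildtype (x axis) and in the humanized strain (y axis); purple points passed the test of the difference between strains, the dashed line marks equal change and 5 genes lie outside the axes. HXT7, ADE17 and SLT2 lie near the dashed line, RRT5 and HSP26 above it, and ARG1 and RGI1 below it.

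Respiratory and stress genes had higher fold changes with density in the humanized strain than in wildtype, which for chaperones was at the median a smaller fall. Chaperone genes fell in 13 of 24 cases in the humanized strain (median −0.46) and in 21 in wildtype (median −0.68). In the respiratory chain the interaction was upward in 10 of 23 genes, and the wildtype median was 0.46 against 1.01. SDH1 was at 67.9, 84.98 and 71.7 CPM in dense and 46.5, 39.2 and 49.9 CPM in sparse wildtype, and the interaction was 1.10 ± 0.16 (adjusted p 0.000682). Upward interactions made up 17 of 63 in the mitochondrial ribosome, 13 of 33 in general stress and 14 of 24 in chaperones. Over all tested genes the upward share was 9.84%. Without the second dense wildtype library, which stood apart in several carbon genes (HXK1 had 198, 366 and 181 CPM in dense wildtype), the upward counts were 13, 28, 20 and 16 in the same order. Leaving out each library in turn, the counts ran from 5 to 13, 12 to 28, 8 to 20 and 11 to 16.

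Within the limits set for named genes, among them a mean of 10 CPM or more, the largest upward interaction was that of RRT5 (3.08 ± 0.21, edgeR adjusted p 8.27e-06). RRT5 was at 9.28, 9.59 and 9.87 CPM in dense and 8.48, 12.2 and 7.81 CPM in sparse wildtype, where its density change did not pass. HSP82, the inducible Hsp90, did not pass in the humanized strain, with 365, 334 and 270.1 CPM and 302, 323 and 319 CPM in overlapping ranges (adjusted p 0.855), and went in wildtype from 325, 284 and 286 CPM to 61.2, 92.4 and 58.9 CPM (interaction 2.11 ± 0.22, adjusted p 0.000109). HSP26 rose in both strains and reached 85.9, 82.4 and 71.2 CPM in dense wildtype (interaction 1.87 ± 0.23). HSP12 had 17.6, 14.9 and 11.8 CPM in dense wildtype (interaction 1.72 ± 0.25), and TDH1 615, 592 and 527 CPM (interaction 1.32 ± 0.16). ALD6, a cytosolic aldehyde dehydrogenase, rose in the humanized strain from 468, 437 and 445 CPM to 1142, 1094 and 1087 CPM and had 235, 571 and 245 CPM in dense and 438, 473 and 495 CPM in sparse wildtype, with the second dense library apart (interaction 1.72 ± 0.37). FRE7, a metal reductase, was at 68.7, 48.4 and 48.6 CPM and 45.996, 27.97 and 44.02 CPM in the humanized strain and at 17.7, 21.3 and 20.2 CPM and 39.3, 52.3 and 37.7 CPM in wildtype (interaction 1.62 ± 0.28). The call of FRE7 in the humanized strain was lost under 14 of the alternatives run.

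**Figure D5:**
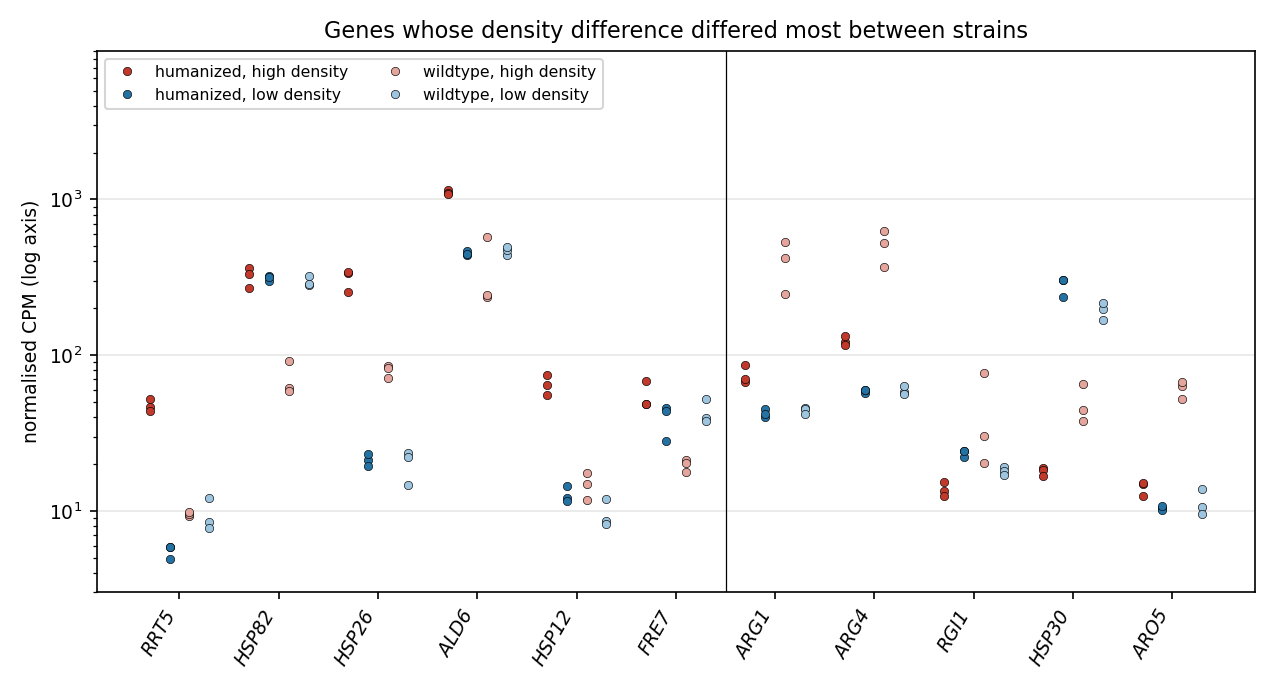
Normalised CPM on a log axis of 11 of the genes whose density change differed most between the strains within the limits for named genes, 6 upward (left of the line) and 5 downward. There is a point per library for the humanized strain (dark) and wildtype (pale) at high (red) and low (blue) density. The sparse libraries of both strains lie close together in most genes, and dense wildtype exceeds dense humanized for ARG1 and ARG4.

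Amino acid synthesis rose more in wildtype. Of 24 genes of arginine, lysine and leucine synthesis 12 rose and 0 fell in wildtype, against 7 and 8 in the humanized strain, and the interaction was downward in 19. For 31 genes of other amino acids the numbers were 19 and 5 in wildtype and 5 and 13 in the humanized strain, with 24 interactions downward. Over all tested genes 20.9% rose and 22.7% fell in wildtype, and 8.02% had a downward interaction. ARG1 and ARG4, of the last steps of arginine synthesis, rose 1.76-fold and 2.10-fold in the humanized strain, and the interactions were −2.37 ± 0.30 and −2.01 ± 0.21 (adjusted p 0.000312 and 9.52e-05). The sparse libraries of both strains had like levels of ARG4, 57.1, 60.2 and 59.9 CPM and 58.3, 56.7 and 63.9 CPM, and the dense ones 122, 133 and 117 CPM and 526, 368 and 623 CPM. LYS20, a homocitrate synthase, fell in the humanized strain from 317, 285 and 306 CPM to 135, 136 and 116 CPM and had 284, 257 and 324 CPM and 305, 336 and 289 CPM in wildtype (interaction −1.13 ± 0.13). Of the 31-base stretches of LYS20 46.5% also occur in another coding sequence, mostly LYS21. ARO5 had 63.6, 52.6 and 66.9 CPM in dense and 10.6, 13.9 and 9.64 CPM in sparse wildtype against 12.5, 14.95 and 15.2 CPM and 10.4, 10.1 and 10.7 CPM in the humanized strain (interaction −1.98 ± 0.19). Which medium each strain grew in is not labelled, and its part in these values was not tested.

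Most phosphate genes had lower fold changes in the humanized strain than in wildtype, where 6 rose and 5 fell (median 0.06). The interaction was downward in 10 of 18, beside 8.02% of all tested genes. Of all genes 20.9% rose and 22.7% fell in wildtype. PHO5, an acid phosphatase, fell in the humanized strain from 201, 182 and 207 CPM to 144, 147 and 144 CPM but rose in wildtype from 174, 238 and 231 CPM to 381, 414 and 424 CPM (interaction −1.36 ± 0.14, adjusted p 0.000113). PHO12 fell in both, with an interaction of −1.58 ± 0.17. For TDA6 the dense libraries had 41.1, 39.4 and 36.3 CPM in wildtype, above the humanized ones, and the interaction was −1.78 ± 0.11. HSP30 had 44.5, 64.9 and 37.6 CPM in dense and 169, 198 and 216 CPM in sparse wildtype (interaction −1.99 ± 0.25), and CIP1 87.995, 114 and 86.4 CPM and 160.3, 143 and 204 CPM (interaction −1.64 ± 0.21). RGI1, known for a role in respiratory growth, had 13.4, 12.5 and 15.3 CPM and 24.2, 22.3 and 24.2 CPM in the humanized strain and 30.3, 76.6 and 20.4 CPM and 19.1, 17.99 and 16.96 CPM in wildtype, where the second dense library stood apart (interaction −2.01 ± 0.50).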

How the data were processed

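Polyadenylated RNA was sequenced, and reads were trimmed with cutadapt and quantified with Salmon 1.9 against sacCer3, per the submitters' processing notes. Those notes state neither the trimming settings nor the read layout or strandedness. The deposited tables hold, per library, estimated counts and TPM over 6571 coding sequences. The estimated counts were rounded to whole numbers. The deposited TPM values, normalised by the authors with Salmon for effective length and depth, entered only an alternative test.

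Systematic names linked 5906 of the sequences to genes of the R64 annotation, and 665 had no entry there. The 12 libraries of both strains and densities were fitted together with edgeR 4.0.16 in R 4.3.3, with TMM scaling, the filterByExpr filter and the quasi-likelihood test. A gene was called at a Benjamini-Hochberg adjusted p below 0.05 over the 6150 tested genes. Every adjusted p in the text is from this test unless another is named, CPM are TMM-normalised within this fit, and ± is the SE of the log2 fold change. The procedure was tested on simulated data, where 83.0% of log2 changes of 1 and 70.7% of log2 changes of 0.5 were recovered over 6134 genes in the humanized comparison. Only 100 genes were changed at each size there, and 5 of 158 calls were false. Far more genes were called in the real data, so these rates may not hold for them. Depth was 29.1 to 46.8 M assigned reads over the 12 libraries, and intervals cover counting error and the spread between libraries together.

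The comparison, gene lists and tests were chosen with earlier results of these data known. Named genes were YHC1 and LUC7, the 12 highest and 12 lowest called genes with a standard name, a mean of 10 CPM or more and groups that do not overlap, the key members and the 3 largest called members of each list, and the 6 highest and 6 lowest called interactions under the same limits (groups apart in at least 1 strain), of which 1 gene is not reported here. Among the 12 highest and lowest, 1 and 2 open reading frames with no standard name were passed over. ADE1, ADE2, ADE4, BAR1, CIT2, CYT1, FUR4, GSC2, HXT1, HXT3, NAM8, NDE1, URA10 and YPS1 are list members named after their values were seen. A 31-base stretch was counted as shared when it also occurs in another coding sequence.

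Alternatives were DESeq2 size factors, TMM from genes outside the ribosome, a low-count filter either dropped or raised to 10 CPM on average, DESeq2 1.42.0 as the test, limma-trend (limma 3.58.1) on log2(TPM + 1), all 7 groups, the compared libraries by themselves, the replicate number as a block, a spline offset (4 degrees of freedom) for length and GC, and each library left out. Counts of interactions per list without a library were added after seeing the data.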

Additional observations from a re-analysis of the deposited data

Results flagged for a closer look

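The genes below were picked out because the change with density differed between the humanized strain and wildtype in the interaction test. Values are interactions on the log2 scale, humanized minus wildtype, with every adjusted p below 0.05 in edgeR's quasi-likelihood test, and the dense cultures of the strains differed in OD600, so strain and density cannot be told apart. Upward differences were 3.08 for RRT5, 2.11 for HSP82, 1.87 for HSP26, 1.72 for ALD6 and for HSP12, 1.62 for FRE7, 1.32 for TDH1 and 1.10 for SDH1. Downward differences were −2.37 for ARG1, −2.01 for ARG4 and for RGI1, −1.99 for HSP30, −1.98 for ARO5, −1.78 for TDA6, −1.64 for CIP1, −1.58 for PHO12, −1.36 for PHO5 and −1.13 for LYS20.

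Among the upward genes HSP82 and FRE7 moved in wildtype, at log2 fold changes of −2.07 ± 0.16 and −1.13 ± 0.20, and RRT5 moved in the humanized strain at 3.09 ± 0.16. Among the downward genes ARG1, ARG4 and ARO5 moved mainly in wildtype, at 3.19 ± 0.22, 3.08 ± 0.15 and 2.43 ± 0.14. ALD6 and RGI1 had a wide spread over the dense wildtype libraries, and their part in the interaction was not tested beyond leaving each library out.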

How the results depend on the processing

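The counts of genes called kept within 1.5 times their values under most alternatives. With a mean of 10 CPM or more, which tests fewer genes, 168 genes rose at least 2-fold in the humanized strain. With limma-trend on log2(TPM + 1), 2703 genes were higher and 708 lower in the humanized strain, 72 of them lower by 2-fold or more, 2290 were higher and 564 lower in wildtype, and 269 interactions were downward; this scale moved the median of all genes to 0.23, so changes near 0 are relative to it. With the spline offset for length and GC 954 interactions were upward and 992 downward; the cause was not tested. Leaving out each library in turn gave 1444 to 1833 genes higher and 1413 to 1773 lower in the humanized strain, 231 to 274 and 123 to 140 by 2-fold or more, 1013 to 1484 and 1044 to 1521 in wildtype, and 420 to 831 upward and 328 to 709 downward interactions, the lowest without the first dense and the first sparse wildtype library, in that order. Deviations of same-numbered libraries correlated at −0.30, 0.23 and 0.06 in the humanized strain and at 0.03, 0.56 and 0.36 in wildtype. Dense library 2 of each strain and dense wildtype library 3 correlated best with the sparse library of the same number. Whether the numbers pair the libraries is not labelled, and these values cannot decide it. The fit with the replicate number as a block called 1811 genes higher and 1810 lower in the humanized strain. Of 102 named genes called in the humanized strain 93 stayed called under every alternative run and none changed direction. FRE7 was lost under 14 alternatives, CLN3 under 6, and ADH2 and FBP1 under 5 each. ARO5, HXT5, LUC7, NPL3 and PHO5 were lost under 1 each. All 18 named interactions stayed called.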

Other observations

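Further gene groups are given by their calls in the humanized strain. Of 24 genes of peroxisomes and fatty acid oxidation 13 rose and 6 fell, of 21 autophagy genes 10 rose and 4 fell, and of 10 vacuolar proteolysis genes 7 rose and 2 fell. Genes of secretion and the endoplasmic reticulum fell in 18 of 30 cases and rose in 2 (median log2 fold change −0.23); with limma-trend on TPM they were 2 lower and 4 higher (median 0.01). Hypoxic and heme genes fell in 9 of 16 cases and rose in 4, and with limma-trend on TPM were 5 lower and 6 higher (median −0.04). On the limma-trend scale the median over all genes was 0.23.

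Groups with no common direction were RNA decay genes, with 5 of 36 higher and 12 lower, antioxidant genes, with 6 of 23 higher and 9 lower, methionine and sulphur genes, with 3 of 23 and 7, fatty acid and phospholipid genes, with 6 of 17 and 5, cytoskeleton genes, with 4 of 21 and 4, and histones, with 3 of 11 and 1. Genes named for stationary phase changed little, with 3 of 15 higher and 1 lower (median 0.05). Ion pump and channel genes at the plasma membrane were higher in 2 of 21 cases and lower in 6. Counts are calls of edgeR's quasi-likelihood test, beside 27.7% higher and 26.7% lower over all genes.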
